A study of Homo sapiens with 16 samples.

Results

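LN229 is an established human glioblastoma cell line, and the RNA of these cells was sequenced after ischemic or regular culture with DMSO, the solvent that serves as the vehicle for small molecule inhibitors. The comparison rests on 4 of the 16 libraries in the series: 2 of ischemic culture with DMSO and 2 of regular culture with DMSO, chosen by their labels alone. Regular culture was complete DMEM with serum in a humidified incubator. The ischemic condition combined hypoxia with medium poor in nutrients, including glucose and glutamine. That medium also had less serum than regular culture and was made from DMEM without pyruvate, so the parts of oxygen, nutrients and serum cannot be told apart. The DMSO libraries belong to a second experiment of 12 libraries, whose other 8 libraries received the p38 inhibitor VX745 or the compound MK25 in either culture and entered only the estimate of the spread. A first experiment, with 2 ischemic and 2 regular libraries of the same line and no vehicle or inhibitor, gave a separate measurement of the ischemic response, so DMSO and the experiment cannot be told apart. All libraries came from 1 cell line, no transgene or knockdown is named in their labels, and the labels do not say whether the 2 libraries of a group came from separate cultures, so p-values measure only the spread between these samples.

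Cells short of oxygen stabilize the hypoxia-inducible factors (HIF), which switch on glucose uptake, glycolysis, angiogenic factors and mitophagy receptors. Cells short of glucose or amino acids activate the kinases that phosphorylate eIF2α, and the translation of ATF4 then raises genes for amino acid synthesis, amino acid transport and tRNA charging, while a load of unfolded protein in the endoplasmic reticulum (ER) activates IRE1α and XBP1. Growth factor signalling through ERK and stress signalling through p38 and its kinase MK2 act on immediate early genes and on the mRNAs of cytokines. In glioblastoma, such conditions are found around the necrotic core of the tumor.

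The DMSO table listed 14024 genes as log2 CPM (read counts scaled to a common library size), normalized between libraries by the authors, of which 99.3% carried a gene symbol. The 4 DMSO libraries held between 23342980 and 32850374 reads on listed genes, so counting error was small for all but the lowest genes. Replicates correlated at 0.994 in the ischemic group and 0.991 in the regular group across genes, and both pairs differed by more than the sampling noise of their reads (mean chi-square per gene 4.47 and 8.19, where 1 stands for sampling noise), so no library was a copy of another. The 10 most abundant genes of each library drew 6.25% and 6.32% of its reads under ischemia and 4.45% and 4.27% under regular culture. Of the glioma markers, 13 of 14 were listed, with a summed level between 8089 and 8106 CPM in ischemic and between 4792 and 5123 CPM in regular libraries. By gene, 1 of them was raised and 2 were lowered, against 9.03% and 8.11% of all genes, with a median log2 fold change of -0.39. The markers of endothelial, epithelial and erythroid cells were not listed, nor were PTPRC, CD14, CD3E and AIF1 of the immune list. CD68 of the immune list was listed, between 60.6 and 61.3 CPM in ischemic and between 30.2 and 33.4 CPM in regular libraries. Of the 4 oligodendrocyte markers 2 were listed and 1 was lowered. Their summed level was between 35.3 and 35.9 CPM in ischemic and between 55.8 and 59.3 CPM in regular libraries. Of the 4 neuron markers 3 were listed, and their summed level was between 67.2 and 68.3 CPM in ischemic and between 20.4 and 21.4 CPM in regular libraries, mostly through SYT1, and the part of such markers in the results was not tested.

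Ischemic culture with DMSO changed a large part of the transcriptome. With limma, 1267 genes were raised and 1138 were lowered at least 2-fold with an adjusted p under 0.05, which is 9.03% and 8.11% of the genes tested. Without a limit on size, 69.6% of the genes had an adjusted p under 0.05, and the median log2 fold change over all genes was -0.007. The authors' log2 values carry an offset of about 2 reads, so folds understate the change of low genes, and a fold is a lower bound in 24 of the raised genes, whose regular libraries held at most 3 reads each, and in 19 of the lowered genes, whose ischemic libraries did. RNA was measured in bulk, so a change in the share of cells that express a gene and a change in RNA per cell cannot be told apart.

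Of the 15 largest rises, 9 belonged to the list of HIF targets. CA9, a carbonic anhydrase on the cell surface that lies on chromosome 9 from 35673928 to 35681159 (GRCh38.p14), had log2 values of 6.87 and 6.97 in the ischemic and -1.77 and 0.27 in the regular libraries. The groups were far apart, although the regular libraries held only 7 and 28 reads of the gene. The log2 fold change was 7.67 ± 0.38 (SE of the limma fit, n = 2 per group, adjusted p = 8.4e-12). This SE rests on the spread over all 12 libraries of the second experiment, whereas the 2 regular values alone had a standard deviation of 1.44. ANGPTL4, a secreted inhibitor of lipoprotein lipase on chromosome 19 from 8364155 to 8374370, had values of 8.31 and 8.34 against 0.81 and 0.86, a rise of 7.49 ± 0.09 (adjusted p = 3.5e-20). Replicates of ANGPTL4 lay almost on top of each other in both cultures. NDRG1 rose by 6.35 ± 0.06 on the log2 scale and ADM, the vasodilator peptide adrenomedullin, by 6.09 ± 0.08.

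**Figure D1:**
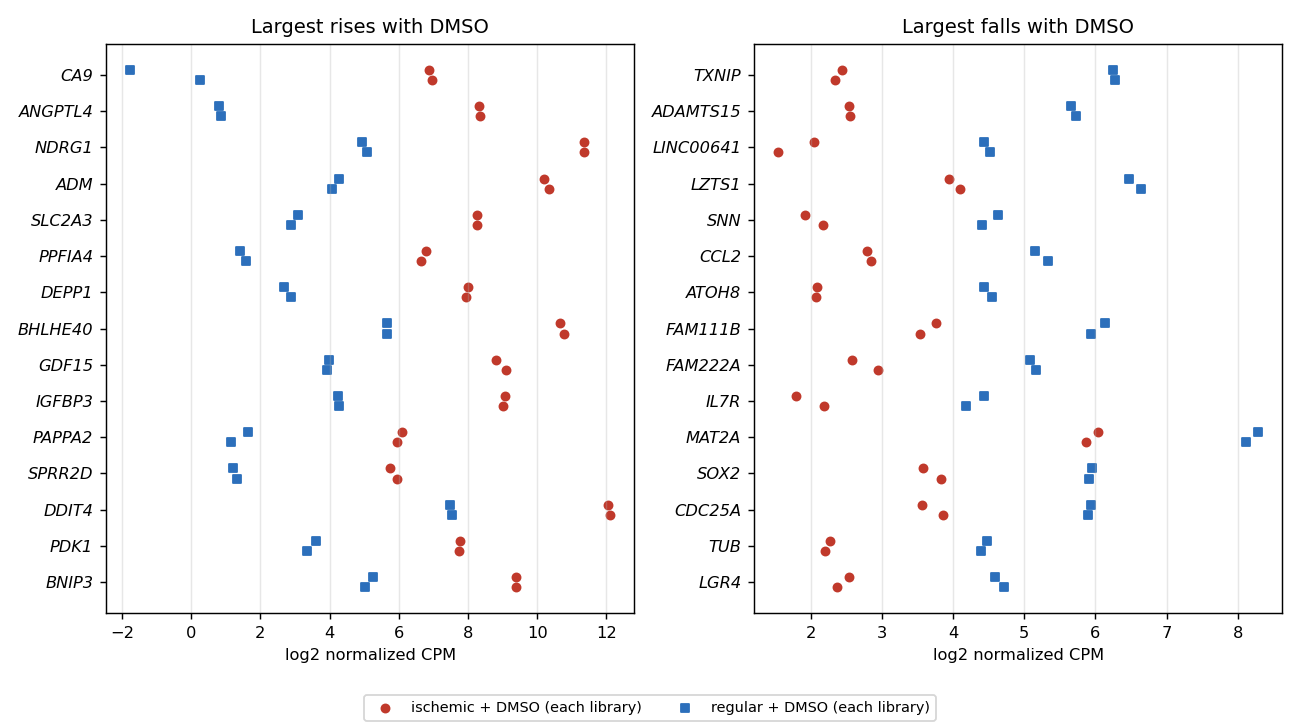
Log2 normalized CPM (horizontal axis) of 15 of the largest rises (left) and 15 of the largest falls (right) in ischemic culture with DMSO. Each point is 1 library, and the genes shown had a mean log2 value of at least 3. Red circles (ischemic) and blue squares (regular) do not overlap, which was a condition for being shown and held for 11680 of the 14024 genes tested. The widest gap among the falls is that of TXNIP.

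Of the 30 HIF targets, 27 were raised and 1 was lowered, against 9.03% and 8.11% of all genes. Their median log2 fold change was 3.30 against -0.007 over all genes. The glucose transporter SLC2A3 had values of 8.26 and 8.27 in the ischemic and 3.08 and 2.87 in the regular libraries, a 39.1-fold rise. The pyruvate dehydrogenase kinase PDK1 rose 19.3-fold, and the mitophagy receptor BNIP3 rose 19-fold. VEGFA, the main angiogenic ligand, had values of 9.36 in both ischemic libraries against 5.42 and 5.47, a 15.1-fold rise that far exceeded the gap between replicates. The prolyl hydroxylase EGLN3 (log2 fold change 0.62 ± 0.25) and the glycolytic regulator PFKFB3 (0.73 ± 0.06) did not reach the fold of 2, and LOX, a collagen crosslinker with 13 and 17 reads in ischemic and 39 and 33 in regular culture, was lowered by 1.12 on the log2 scale.

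Glycolytic enzymes rose with them, 14 of 16 being raised and none lowered, against 9.03% and 8.11% of all genes. Their median log2 fold change was 1.56. Hexokinase HK2 had values of 10.44 and 10.46 against 6.37 and 6.28, a 17.4-fold rise, while the brain enolase ENO2 rose 13.9-fold and the aldolase ALDOC 12.5-fold. The other members that were raised rose between the 4.77-fold of PGK1 and the 2.02-fold of TPI1. Only PKM (0.72 ± 0.07) and the muscle phosphofructokinase PFKM (-0.26 ± 0.06) stayed under the 2-fold limit among the 16 enzymes.

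ATF4 and CHOP targets were raised for the most part. Of 29 listed members, 23 were raised and none was lowered, against 9.03% and 8.11% of all genes. Their median log2 fold change was 2.02. GDF15, a stress cytokine on chromosome 19 from 18386158 to 18389176, had values of 8.80 and 9.09 in the ischemic and 3.99 and 3.92 in the regular libraries, a 31.7-fold rise (adjusted p = 5.33e-18). DDIT4, an inhibitor of mTORC1 that HIF also induces, had values of 12.03 and 12.11 against 7.48 and 7.54, a 23.6-fold rise. Both genes separated the cultures by many times the gap between replicates. The pseudokinase TRIB3 rose 16.2-fold, asparagine synthetase ASNS 7.93-fold and DDIT3, which encodes CHOP, 3.57-fold. CHAC1, which degrades glutathione, had values of 2.63 and 2.39 in the ischemic against 3.25 and 3.54 in the regular libraries, a log2 change of -0.88 ± 0.16 that did not reach the fold of 2. Among cytosolic tRNA synthetases, 10 of 20 were raised and none was lowered, led by WARS1 (4.58-fold) and GARS1 (4.29-fold).

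The 30-base stretches below carry textbook sites of the factors behind these lists, read from the RefSeq promoter windows of GRCh38.p14. They are examples, and the genes that hold them were picked by hand. Capitals mark the letters searched, which were ACGTG or GCGTG for the HIF site core, TGATGNAA for the amino acid response element, GAANNTTC for the heat shock element and the CArG box by its name, on both strands. The sites stand at chr9:35673898-35673927 on the plus strand for CA9, chr11:10304960-10304989 on the plus strand for ADM and chr7:97872458-97872487 on the minus strand for ASNS.
CA9: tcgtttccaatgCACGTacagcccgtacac
ADM: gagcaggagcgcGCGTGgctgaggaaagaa
ASNS: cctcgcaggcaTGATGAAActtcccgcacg

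Over the 250 bases before each start, the HIF site core was found for 21 of the 24 HIF targets with a window (87.5%) and for 64.5% of the 11087 tested genes with a window. The amino acid response element was found for 4 of 24 ATF4 and CHOP targets (16.7%) against 2.46% of tested genes. These shares describe lists that were built from known targets of the factors. Among all genes raised with DMSO, 65% held a HIF site core, 5.24% an amino acid response element and 10.4% an AP-1 site (TGANTCA), against 64.5%, 2.46% and 6.33% of tested genes. Of all 35116 windows of this length in the table, 43.2% held the HIF core, 3.14% the amino acid element, 5.78% the heat shock element, 6.57% the AP-1 site and 1.16% a CArG box.

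The list of ER chaperones and genes of ER-associated degradation, which also holds XBP1, responded less, its median being 0.30 on the log2 scale. In it, 3 of 21 members were raised and none was lowered, beside 9.03% and 8.11% over all genes. XBP1, the factor that IRE1α activates by splicing, had values of 8.38 and 8.47 against 6.05 and 5.94, a 5.4-fold rise. DNAJB9 rose 2.62-fold and HERPUD1 2.26-fold, and both are targets of the ER stress factors. The central ER chaperone HSPA5 had values of 10.59 and 10.63 in the ischemic and 9.83 and 9.87 in the regular libraries, a 1.7-fold change with an adjusted p of 1.01e-09 that stayed under the 2-fold limit.

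The median of cytosolic and mitochondrial chaperones went the other way, with a log2 fold change of -0.60. Of 16 listed members, 1 was raised and 3 were lowered, against 9.03% and 8.11% of all genes, and 12 were not called. HSPA8, the constitutive HSP70 on chromosome 11 from 123057489 to 123062462, had values of 9.43 and 9.47 in the ischemic against 11.50 and 11.44 in the regular libraries, a 4.06-fold fall (adjusted p = 4.77e-15). The co-chaperones DNAJA1 and HSPH1 fell 3.26-fold and 3.23-fold. DNAJB1, the HSP40 that activates HSP70, was the one member raised, with values of 9.54 and 9.56 against 8.15 and 8.13 (log2 fold change 1.41 ± 0.12). A heat shock element was found for 8 of 15 members with a window (53.3%) against 5.88% of tested genes, both for members that fell and for the one that rose. HSPA8 and DNAJB1 held 2 sites each, and the site of HSPA8 nearest to its start lies at chr11:123062168-123062197 on the minus strand, and those of DNAJB1, in the second of its 3 windows, at chr19:14518456-14518485 and chr19:14518426-14518455 on the minus strand.
HSPA8: ggccccttctgGAAGGTTCtaagatagggt
DNAJB1 distal: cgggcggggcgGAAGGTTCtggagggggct
DNAJB1 proximal: ggcgggctctgGAAGCTTCcgccggacggg

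Inflammatory genes were mixed, with 10 of 21 listed members raised and 2 lowered, against 9.03% and 8.11% of all genes (median log2 fold change 0.77). PTGS2, the inducible cyclooxygenase, had values of 6.65 and 6.71 against 2.67 and 2.54, a 16.9-fold rise (adjusted p = 3.94e-17). The growth factor CSF2 rose 9.28-fold and TNFAIP3, the feedback inhibitor of NFκB, 9.1-fold. CXCL8, the neutrophil chemokine, had values of 8.91 and 8.81 in the ischemic and 6.23 and 6.21 in the regular libraries, a 6.22-fold rise. IL1A rose 5-fold, IL1B 3.23-fold and the adhesion receptor ICAM1 4.03-fold. CCL2, the monocyte chemokine, fell 5.42-fold with values of 2.78 and 2.84 against 5.15 and 5.34, and CXCL1 fell 2.72-fold. IL6 had 47 and 66 reads in ischemic and 66 and 25 in regular culture, and its log2 change of 0.48 ± 0.32 was within the replicate error (adjusted p = 0.183).

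Immediate early genes were raised in 12 of 25 cases and lowered in 1, against 9.03% and 8.11% of all genes. The phosphatase DUSP1, which inactivates p38 and JNK, had values of 6.86 and 6.95 against 3.16 and 2.93, a 14.6-fold rise. DUSP5, a nuclear ERK phosphatase, had values of 7.27 in both ischemic libraries against 4.30 and 4.38, a 7.62-fold rise. EGR1, a zinc finger factor on chromosome 5 from 138465479 to 138469303, had values of 6.97 and 6.93 against 4.50 and 4.68, a 5.12-fold rise (adjusted p = 4.14e-12). DUSP1, DUSP5 and EGR1 were each higher in both ischemic libraries than in either regular library. Such a separation, in either direction, held for 11680 of the 14024 genes. A pair of CArG boxes, the sites of the serum response factor, lie in the 250 bases before EGR1, at chr5:138465364-138465393 and chr5:138465386-138465415 on the plus strand, where 1.46% of tested genes and 2 of 19 immediate early genes (10.5%) held at least 1.
EGR1 distal: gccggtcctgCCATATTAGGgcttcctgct
EGR1 proximal: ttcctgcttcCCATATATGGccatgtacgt

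Of 17 genes of the p38 and MK2 cascade itself, 1 was raised (MKNK2, 2.23-fold) and 2 were lowered, against 9.03% and 8.11% of all genes. MAP2K6, a kinase that activates p38, fell 2.84-fold, from 3.67 and 3.57 in the regular to 2.02 and 2.21 in the ischemic libraries. MAPK14, which encodes p38α, had a log2 change of -0.45 ± 0.06 and MAPKAPK2, which encodes MK2, one of -0.12 ± 0.06, neither reaching the fold of 2.

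Of the 24 NRF2 targets, 2 were raised and 2 lowered, shares close to the 9.03% and 8.11% over all genes. The autophagy receptor SQSTM1 rose 2.15-fold and malic enzyme ME1 2.12-fold, while the peroxiredoxin PRDX1 fell 2.24-fold and GCLM, the modifier subunit of the glutathione-synthesizing ligase, 2.35-fold. HMOX1, heme oxygenase, had values of 4.30 and 4.39 against 3.35 and 3.46, a 1.92-fold change just under the limit. The call of SQSTM1 was lost under quantile normalization, where its log2 fold change was 0.69.

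Metabolic genes of lipid synthesis changed in single members, where 9.03% of all genes were raised and 8.11% lowered. In the cholesterol list, INSIG1, which retains the sterol sensor in the ER, was the 1 of 23 members raised (6.26-fold), and 2 were lowered. Of 15 genes of fatty acid synthesis, 2 were raised (SREBF1 and SCD) and 1 was lowered. Among 20 autophagy genes, 4 were raised, led by the LC3 gene MAP1LC3B (3.66-fold). TXNIP, an inhibitor of glucose uptake that glucose itself induces, had values of 2.43 and 2.33 in the ischemic against 6.24 and 6.28 in the regular libraries, a 14.7-fold fall (adjusted p = 1.69e-16). Its relative ARRDC3 went the opposite way and rose 9.43-fold.

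In the DNA replication list 4 of 30 were lowered and none raised (8.11% and 9.03% over all genes), with a median log2 fold change of -0.41. The members called were GINS2, PCNA, FEN1 and MCM6, with falls between 2.53-fold and 2.09-fold. CDC25A, the phosphatase that opens the G1 checkpoint, had values of 3.55 and 3.85 against 5.93 and 5.90, a 4.63-fold fall. Mitotic genes showed 1 raised and none lowered of 24 (UBE2C, 2.07-fold, a call lost under quantile normalization, where the log2 fold change was 0.72, and without the second library of either culture), and ribosome biogenesis 3 lowered and none raised of 24, led by NOP56 (2.71-fold). None of the 26 nuclear-encoded respiratory chain genes was called. Of the 13 genes encoded in mitochondria, 3 were lowered, ND1 by 1.89, ND6 by 1.04 and ATP8 by 1.01 on the log2 scale, and ND6 and ATP8 sat so near the limit that each call was lost without 1 library (ischemic replicate 1 and regular replicate 1, with log2 fold changes of -0.997 and -0.62).

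The remaining lists are to be read beside the 9.03% raised and 8.11% lowered over all genes. Among them, 4 of 16 YAP and TGF-β targets were raised, including the tissue factor gene F3 (3.95-fold), CCN1 and INHBA. Interferon-stimulated genes showed 1 of 20 raised and 3 lowered, with IFIT1 falling 4.55-fold from a low level. Extracellular matrix genes showed 2 of 18 raised and 1 lowered. The glial stem cell factor SOX2 had values of 3.58 and 3.83 in the ischemic against 5.95 and 5.91 in the regular libraries, a 4.68-fold fall, and the intermediate filament gene NES fell 2.08-fold while VIM rose 2.42-fold. Other large falls were those of the metalloprotease ADAMTS15 (8.9-fold), the receptor IL7R (5-fold) and MAT2A, which makes S-adenosylmethionine (4.77-fold).

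The second question was which genes responded to ischemia by a different amount with DMSO than in the untreated experiment. The 13475 genes in both tables had log2 fold changes that correlated at r = 0.899 (Pearson) and rho = 0.867 (Spearman) across genes, a description with no p since genes are not independent replicates. The untreated experiment raised 11.1% and lowered 9.07% of them. Of the genes in both tables, 1207 were raised with DMSO and 1499 untreated, and 1021 were raised in both, which is 84.6% and 68.1% of each list. For lowered genes the numbers were 1025 with DMSO and 1222 untreated, and 722 were shared, 70.4% and 59.1% of each list. The fold was nearer 0 with DMSO for 727 of the 1021 genes raised in both and for 441 of the 722 lowered in both, and the median ratio of the log2 fold changes was 0.898 and 0.920. The standard deviation of the log2 fold changes was 0.862 with DMSO and 0.967 untreated.

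A gene called in one experiment only need not differ between them, so the difference was tested itself, as the ischemic response with DMSO minus the untreated response in a fit over 16 libraries. It was positive for 447 genes (3.32%) and negative for 607 (4.5%) at 1.5-fold and an adjusted p under 0.05. Of the 185 genes raised with DMSO and not called untreated, 30 had a called difference, as did 70 of the 303 lowered with DMSO and not called untreated. For the reverse case the counts were 129 of 478 and 149 of 499. Of the 1743 genes called the same way in both experiments, 223 had a called difference, 201 with the smaller response under DMSO and 22 with the larger. Over all 1054 called differences, 576 were smaller responses with DMSO, 162 larger ones and 316 had opposite signs, and 452 belonged to genes called in neither experiment. The 2 tables were normalized separately, and on that footing the gap between experiments was wider in the ischemic than in the regular libraries for 410 of the 447 positive and 433 of the 607 negative differences.

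**Figure D2:**
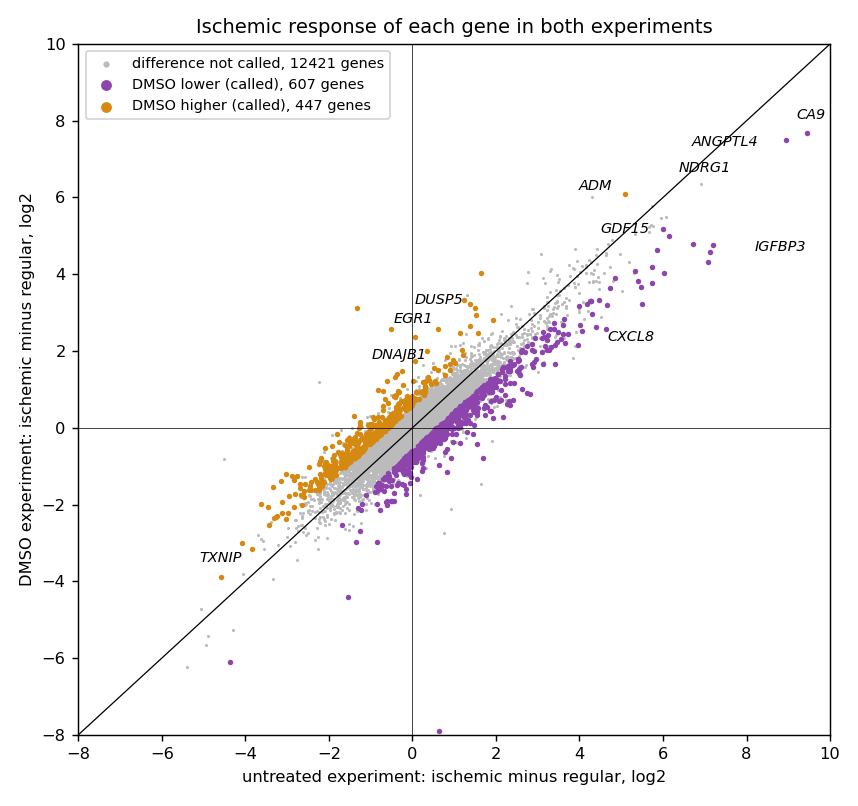
Log2 fold change of ischemic against regular culture for 13475 genes, untreated (horizontal axis) and with DMSO (vertical axis), with the line of equality. Orange points mark 447 positive and purple points 607 negative called differences, and the strongest HIF targets CA9 and ANGPTL4 lie under the line at the upper right.

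HIF targets responded less with DMSO. Of 30 members, 12 had a negative and 1 a positive difference, against 4.5% and 3.32% of all genes, and the median difference was -0.47 (0.002 over all genes in both tables). Of the 1021 genes raised in both experiments, 727 also had the smaller fold with DMSO, with a median ratio of the log2 fold changes of 0.898. Whether HIF targets differ in this from other raised genes was not tested. VEGFA rose by 3.91 with DMSO and by 4.85 untreated on the log2 scale, a difference of -0.93 (95% interval -1.10 to -0.77, adjusted p = 3.56e-07). The hormone gene STC2 differed by -0.98 ± 0.09, PFKFB4 by -0.97 ± 0.09 and the collagen hydroxylase P4HA1 by -0.76 ± 0.08. ANGPTL4 differed by -1.46 (interval -1.75 to -1.16), and its ischemic values were alike in both experiments (8.31 and 8.34 with DMSO, 8.25 and 8.29 untreated) whereas its regular values were 0.81 and 0.86 with DMSO and -0.82 and -0.54 untreated. EGLN3 had a log2 fold change of 2.26 untreated and 0.62 with DMSO. Among HIF targets without a called difference, that of BNIP3 was 0.08 (interval -0.16 to 0.32) and that of SLC2A1 -0.04 ± 0.10. Others had an adjusted p under 0.05 but stayed under the 1.5-fold limit. NDRG1 (-0.56, adjusted p = 0.00144) and MXI1 (-0.49, adjusted p = 0.0026) rose less with DMSO, and AK4 rose more (0.33, adjusted p = 0.0316).

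The difference of CA9, -1.78 with an interval from -2.86 to -0.70 (adjusted p = 0.0163), rested on few reads in regular culture, 7 and 28 with DMSO against 6 and 5 untreated, and it was lost without untreated regular replicate 2 and without the trend of the variance, its value ranging from -2.80 to -0.76 over all settings. ADM was the one positive member (0.99, interval 0.37 to 1.61), but its untreated ischemic libraries disagreed at 9.10 and 10.27, and the call was lost in 6 of 16 alternative settings. LOX lost its call in 8 of 16 settings. Leaving out single libraries moved the count of negative HIF differences between 9 and 15.

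**Figure D3:**
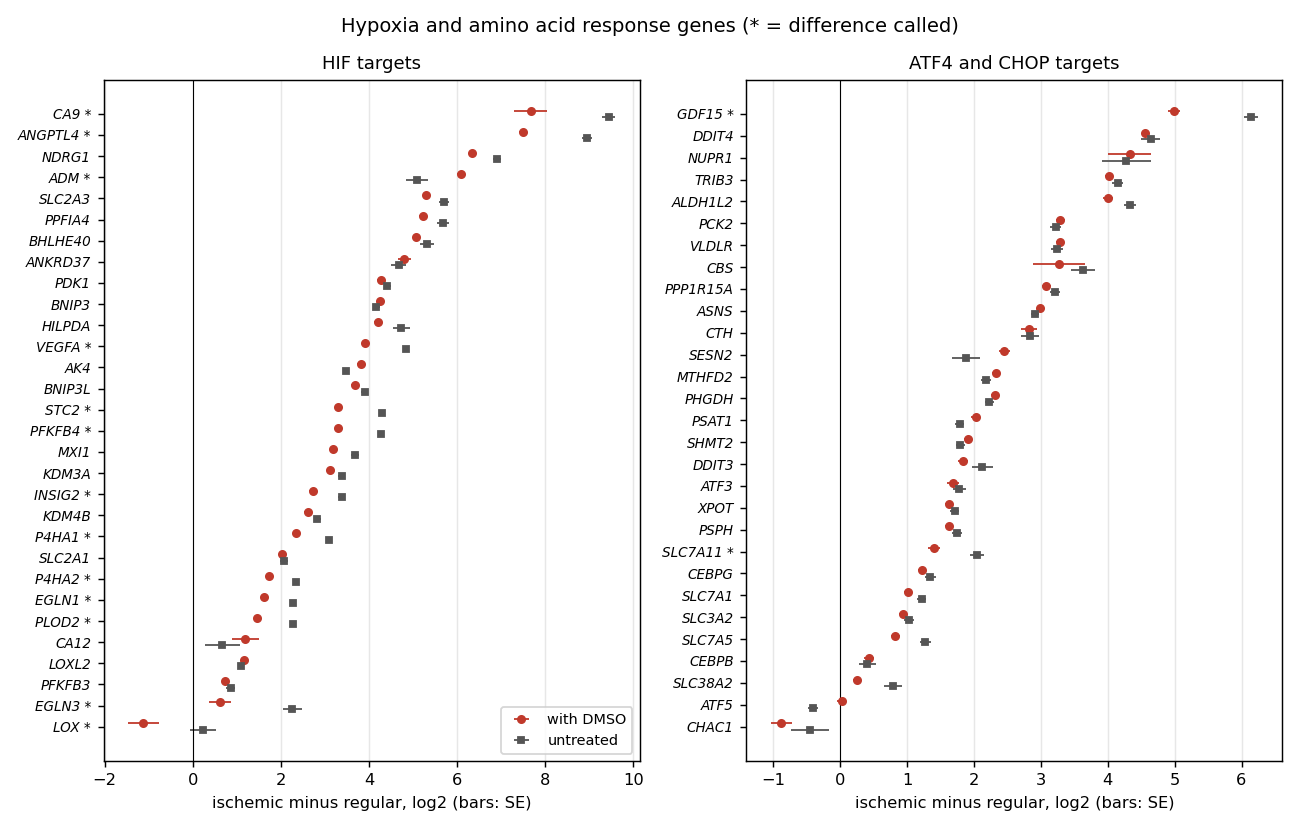
Log2 fold change (ischemic minus regular, horizontal axis, bars are SE) of HIF targets (left) and of ATF4 and CHOP targets (right) with DMSO (red circles) and untreated (grey squares). Asterisks mark called differences, of which 13 fall among 30 HIF targets and 2 among 29 ATF4 and CHOP targets.

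The response of ATF4 and CHOP targets was nearly the same size in both experiments. Of 29 members 2 had a called difference, both negative (4.5% over all genes), with a median difference of -0.09. GDF15 differed by -1.15 (interval -1.46 to -0.84, adjusted p = 3.84e-05) and the cystine transporter SLC7A11 by -0.64 (interval -0.97 to -0.32), a call lost without any 1 of 3 libraries. TRIB3 differed by -0.13 (interval -0.34 to 0.08), ASNS by 0.08 with a lower bound of -0.08, and DDIT4 by -0.08 (interval -0.42 to 0.26). The count of negative differences was between 1 and 5 when single libraries were left out, the 5 being reached without untreated ischemic replicate 2. No tRNA synthetase listed in both tables had a called difference, and 1 of 16 glycolytic enzymes did (ALDOC, -1.07 ± 0.23).

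Of 16 cytosolic and mitochondrial chaperones, 8 had a positive and 1 a negative difference (3.32% and 4.5% over all genes), 7 of the 8 being values nearer 0 with DMSO and DNAJB1 a change of sign, with a median difference of 0.58, and 8 were lowered untreated against 3 with DMSO. DNAJB1 had values of 9.54 and 9.56 in ischemic culture with DMSO against 8.15 and 8.13 in regular culture, and of 7.22 and 7.30 against 7.67 and 7.61 untreated. Ischemic libraries were thus the higher ones with DMSO and the lower ones untreated, with a difference of 1.79 (interval 1.44 to 2.13, adjusted p = 1.45e-06). The small heat shock protein HSPB1 had a log2 fold change of -0.34 with DMSO and -1.49 untreated, and HSP90AA1, the inducible HSP90, -0.65 and -1.69. HSPA8 fell by 2.02 with DMSO and by 2.65 untreated. DNAJB4 was the exception, at -0.97 with DMSO and -0.05 untreated. HSPA6, a heat-inducible HSP70 outside the list that was picked after its values were seen, had log2 fold changes of 2.57 with DMSO and -0.52 untreated, with 930 and 1085 reads in ischemic and 187 and 162 in regular culture with DMSO, and its difference was 3.09 (interval 2.32 to 3.85). The count of positive differences was 5 under quantile normalization, where HSPA8, HSP90AB1 and STIP1 lost the call, and between 6 and 8 when single libraries were left out.

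Immediate early genes differed positively in 6 and negatively in 2 of 25 cases, against 3.32% and 4.5% over all genes. DUSP5 had untreated values of 5.42 and 5.28 against 3.87 and 3.80, so that its rise of 1.52 there compares with 2.93 with DMSO (difference 1.41, interval 1.21 to 1.62, adjusted p = 3.84e-08). DUSP6, the cytosolic ERK phosphatase, had log2 fold changes of 1.61 with DMSO and 0.77 untreated, and SPRY4, an inhibitor of receptor tyrosine kinase signalling named for the size of its difference, had log2 fold changes of 0.93 and -0.33. EGR2 and FOSB changed sign, at 0.65 and 0.56 with DMSO and -0.59 and -0.70 untreated, and EGR3 was at -0.89 and -2.08. KLF10 (-0.90 ± 0.11) and NR4A3 (-0.95 ± 0.26) had the smaller response with DMSO, and NR4A3 lost its call without untreated ischemic replicate 2 and without regular DMSO replicate 2, with values from -1.23 to -0.66 over all settings. EGR1 had a difference of 2.30, but its untreated ischemic libraries stood at 6.69 and 4.10, on either side of the regular values of 5.23 and 5.44, and the difference ranged from 1.01 to 3.59 when single settings or libraries were changed, with the call lost without the trend of the variance.

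**Figure D4:**
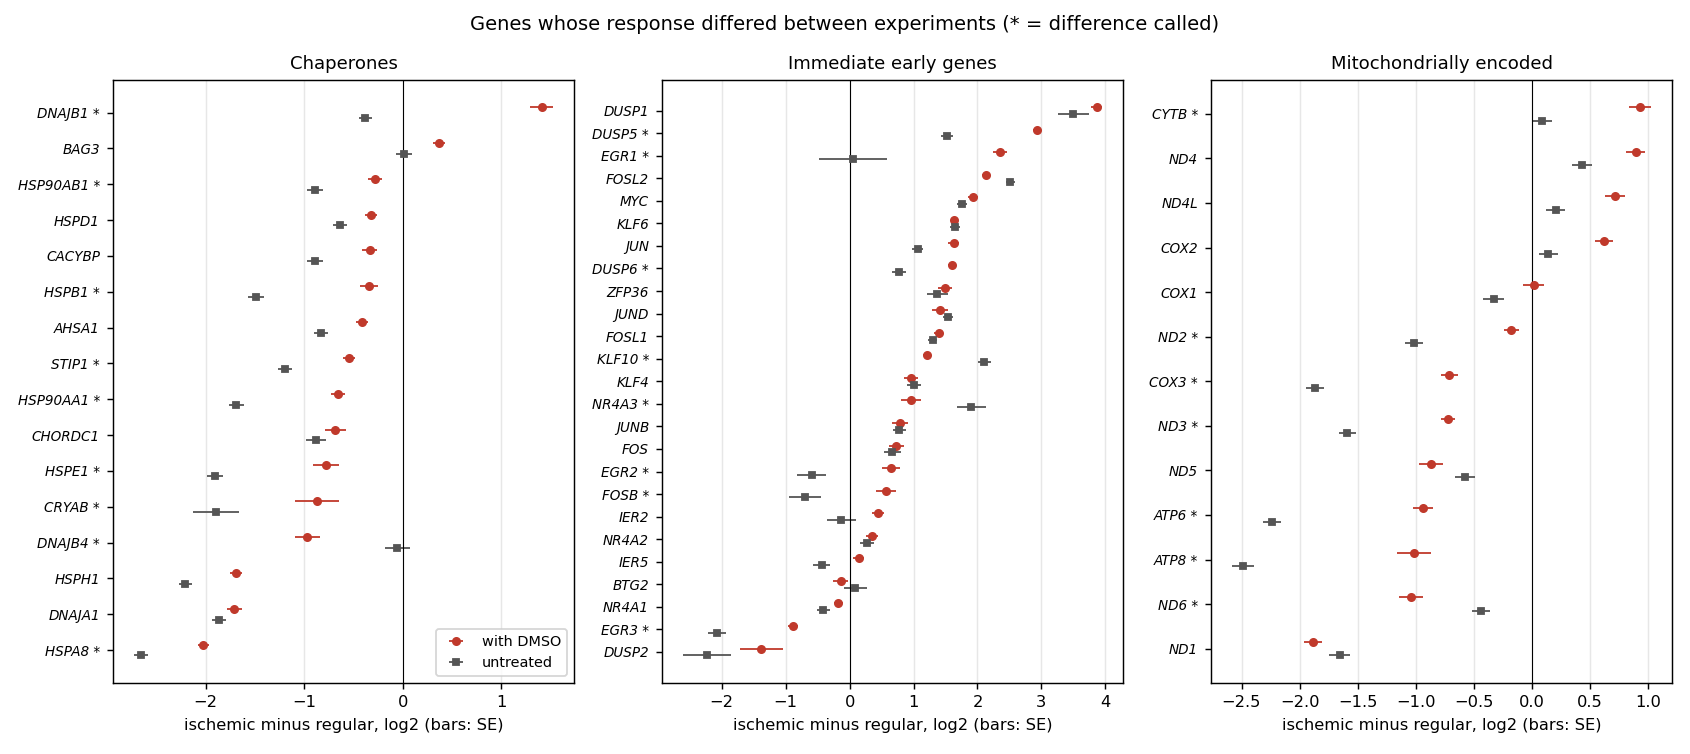
Log2 fold change (ischemic minus regular, horizontal axis, bars are SE) of chaperones, immediate early genes and mitochondrially encoded genes with DMSO (red circles) and untreated (grey squares). Asterisks mark called differences, 9 of 16, 8 of 25 and 7 of 13 genes in the panels from left to right, and EGR1 has the widest error in the untreated experiment.

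Mitochondrially encoded genes had 6 positive differences and 1 negative among 13, against 3.32% and 4.5% over all genes. ATP6 and ATP8, which encode subunits of the ATP synthase and overlap each other on the mitochondrial genome, had log2 fold changes of -0.94 and -1.01 with DMSO and of -2.24 and -2.49 untreated. The cytochrome oxidase subunit COX3 had log2 fold changes of -0.71 and -1.87, and CYTB 0.93 and 0.09. ND6, which lies on the other strand of the mitochondrial genome from the rest and was counted without strand, was the negative member (-1.04 and -0.44), a call lost without any 1 of 3 libraries and with median centring. The median over the 13 genes was -0.71 with DMSO and -0.57 untreated while the median of their differences was 0.51, so the 2 summaries point in different directions.

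Inflammatory genes differed in both directions, 2 positively and 4 negatively among the 20 listed in both tables (3.32% and 4.5% over all genes). CXCL8 rose by 2.64 with DMSO and by 4.40 untreated (difference -1.77, interval -2.03 to -1.50, adjusted p = 3.84e-08). Its ischemic values were 8.91 and 8.81 with DMSO and 8.98 and 9.20 untreated, whereas its regular values were 6.23 and 6.21 with DMSO and 4.73 and 4.64 untreated, in tables that were normalized separately. PTGS2 (-1.25 ± 0.12) and IL1A (-1.22 ± 0.18) followed the same order, with regular IL1A values of 2.82 and 3.10 with DMSO and 1.28 and 1.43 untreated. CXCL1 was lowered with DMSO (-1.44) and at -0.07 untreated. CSF2 had a positive difference of 1.84 ± 0.40, where the untreated libraries held between 2 and 10 reads, and the call was lost with voom on the recovered reads. TNFAIP3 and ICAM1 differed by -0.07 ± 0.22 and -0.03 ± 0.10.

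NRF2 targets had 5 negative differences and 1 positive among 24 (4.5% and 3.32% over all genes), with HMOX1 (-0.96 ± 0.14), ME1 (-0.90 ± 0.12), OSGIN1, MAFG and SQSTM1 responding less with DMSO and PGD going from -0.50 untreated to 0.11. Of these calls, that of PGD was lost in 4 of 16 settings, that of SQSTM1 in 3 and that of MAFG in 1. In the p38 and MK2 list, MAP2K6 alone had a called difference (0.95 ± 0.15), its fall being smaller with DMSO. Among glioma markers, SOX2 fell by 2.23 with DMSO and by 3.11 untreated, and OLIG2 and FABP7 likewise had positive differences (0.87 and 0.60). The list of DNA replication genes had 1 positive difference (POLA2, lost in 5 of 16 settings), and the nuclear-encoded respiratory chain, autophagy, interferon and matrix lists had none.

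**Figure D5:**
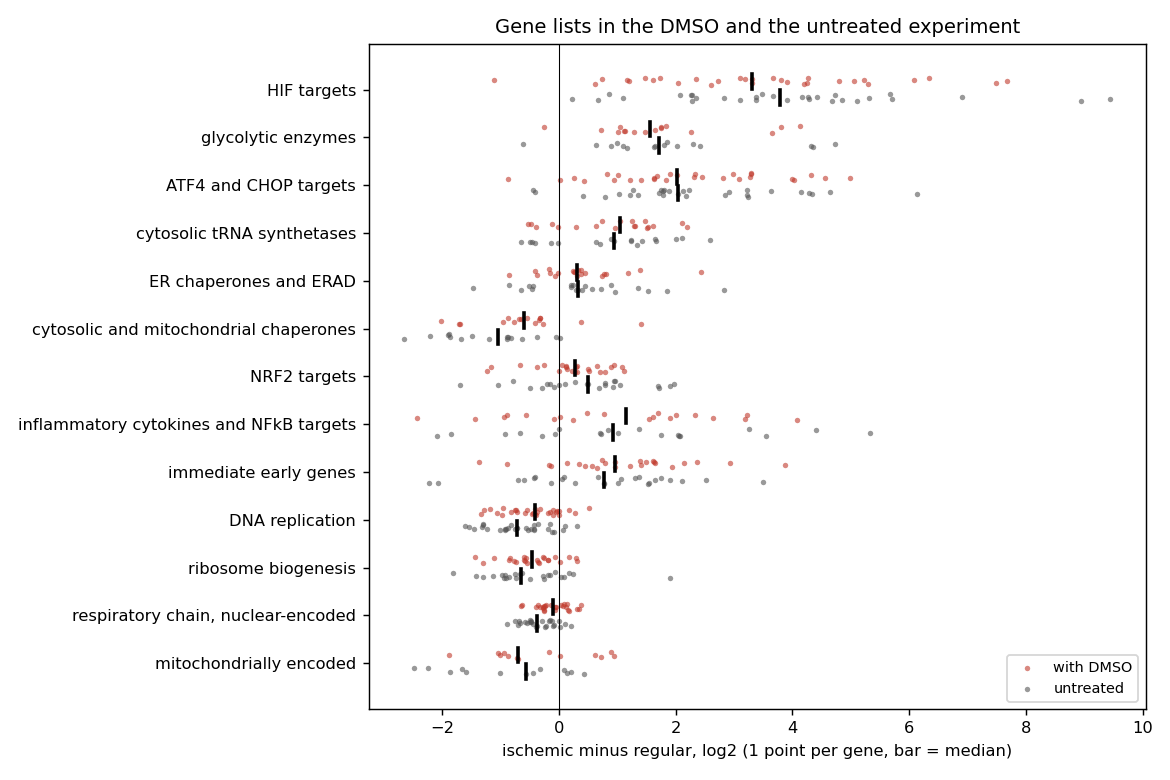
Log2 fold change (ischemic minus regular, horizontal axis) of each member of 13 gene lists, restricted to genes in both tables, with DMSO (red) and untreated (grey), where black bars are medians. The bars of the HIF list are at 3.30 with DMSO and 3.79 untreated, those of the ATF4 and CHOP list at 2.02 and 2.04, and those of the cytosolic and mitochondrial chaperones at -0.60 and -1.04.

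Outside the lists, IGFBP3, a carrier of insulin-like growth factors on chromosome 7 from 45912245 to 45921272, rose by 4.78 with DMSO and by 6.71 untreated. Its ischemic values were 9.08 and 9.02 with DMSO and 9.32 and 9.20 untreated, and its regular values were 4.24 and 4.29 with DMSO and 2.63 and 2.47 untreated, so the gap between experiments was in regular culture (difference -1.93, interval -2.13 to -1.72, adjusted p = 7.74e-10). STC1, the paralog of STC2, differed by -1.80 ± 0.10, the pattern recognition protein gene PTX3 by -1.90 ± 0.16 and the imprinted zinc finger gene PEG3 by -1.75 ± 0.10. PTX3 had values of 4.37 and 4.34 against 4.10 and 4.06 with DMSO and of 5.88 and 5.52 against 3.54 and 3.52 untreated, a response seen for the most part in the untreated experiment. In the positive direction, FERMT1, an integrin activator, had log2 fold changes of 0.98 with DMSO and -0.83 untreated, and RGS4, a regulator of G protein signalling, fell by 1.99 with DMSO and by 3.62 untreated.

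One gene was called in opposite directions. SNORD14D, a small nucleolar RNA gene inside HSPA8 on chromosome 11 from 123058909 to 123058995, had 159 and 219 reads in ischemic against 16 and 26 reads in regular culture with DMSO, and 4 and 7 against 23 and 14 reads untreated. The library kit does not mark strand and the gene lies within another, so its reads cannot be told apart from those of HSPA8. EIF3CL and NME2 have near-identical relatives and FKBP9P1 is a pseudogene, so their differences (-2.48, 1.29 and -2.002) are uncertain, and those of EIF3CL and NME2 were lost in 9 and 5 of 16 settings.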

How the data were processed

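RNA of LN229 cells was sequenced in 16 libraries, 4 without vehicle and 12 in a second experiment with DMSO, VX745 or MK25, made with SMART-Seq mRNA HT and Nextera XT kits, which do not mark strand. Per the submitters' processing notes, the authors used HISAT2, GRCh38 and edgeR (versions not given in the sources used here) and deposited log2 normalized CPM per gene, each experiment normalized separately and filtered on low genes. The duration of the ischemic culture for RNA is not given in the sources used here. Whole reads were recovered from the low values (100% within 0.05 reads, among values under 1000 reads) and gave between 20122017 and 37562668 reads per library. No other columns of per-sample values were present.

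The deposited log2 values were fitted with limma 3.58.1 in R 4.3.3 with a trend of the variance, over the 12 libraries of the second experiment in 6 groups for the DMSO contrast, over the 4 untreated libraries for the untreated contrast, and over 16 libraries for the difference. The study's methods describe a test on counts. Here the deposited log2 values were the main input, and limma-voom on the recovered reads, an alternative, called 1295 genes raised and 1145 lowered with DMSO. Calls required an adjusted p (Benjamini-Hochberg over all genes) under 0.05 and a fold of 2, or 1.5 for differences. Intervals are 95% intervals of the fit and cover each gene alone. Tables and figures used Python 3.11.15 with numpy 2.4.6, pandas 2.3.3, scipy 1.17.1 and matplotlib 3.10.9, and the fits were tested on simulated data. Of the 14024 genes, 11087 matched a RefSeq promoter window.

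Named genes were the 15 largest rises and falls with DMSO (mean log2 value of at least 3, ischemic and regular libraries apart), in each list the largest rise, the largest fall and each called difference, the 12 largest differences each way (mean of at least 3, no overlap between experiments) and genes called in opposite directions. Other list members are named as examples. The members and lists were chosen with earlier results of these data known. Alternatives were a filter on low values, scaling, variance model, voom on recovered reads, fold limits, a replicate block and leaving out single libraries. A few genes are not reported here.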

Additional observations from a re-analysis of the deposited data

Results flagged for a closer look

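The ischemic response differed between the DMSO and the untreated experiment, by the difference term of the limma fit over 16 libraries, for 447 genes with a positive and 607 with a negative difference at 1.5-fold. Vehicle and experiment cannot be told apart in this term. Among the list members with the largest differences, the log2 difference (DMSO minus untreated) was -1.78 for CA9, -1.46 for ANGPTL4, 1.79 for DNAJB1, -1.77 for CXCL8, 2.30 for EGR1, 1.41 for DUSP5, 1.30 for ATP6 and 1.48 for ATP8.

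Among the other genes chosen by size, the positive differences were 1.82 for FERMT1, 1.63 for RGS4, 1.47 for LINC00707, 1.41 for FOXC2, 1.29 for NME2, 1.26 for SPRY4 and 1.26 for FBXO32. The negative ones were -2.48 for EIF3CL, -2.002 for FKBP9P1, -1.93 for IGFBP3, -1.90 for PTX3, -1.80 for STC1, -1.75 for PEG3, -1.60 for KCNE4, -1.46 for CCPG1 and -1.44 for LINC00641. SNORD14D, which was called in opposite directions, differed by 4.45.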

How the results depend on the processing

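No called value changed sign under the alternatives tried. With DMSO, 2537 genes were raised and 2506 lowered at 1.5-fold, and leaving out single libraries gave 1248 to 1307 raised and 1094 to 1230 lowered. Without a limit on size, 1791 differences were positive and 1769 negative, at 2-fold 98 and 141, and leaving out single libraries gave 365 to 555 positive and 486 to 753 negative. Median centring gave 536 positive and 532 negative differences and quantile normalization 522 and 535. With the replicate block, 1267 genes were raised and 1140 lowered, and 455 differences were positive and 609 negative. The numbers were not taken as pairs, since the labels tie a number to nothing shared and the deviations of same-numbered libraries did not all correlate, at -0.036 in the DMSO groups and 0.271 in the first experiment. Without genes copied on alternate scaffolds, an alternative chosen after seeing the data, 1251 genes were raised and 1130 lowered, and 447 differences were positive and 602 negative. Among the values of single named genes under all alternatives, 2847 stayed on their side of the threshold, 93 lost it and 20 passed it. Genes with few reads set the limit of depth, since the regular libraries of CA9 with DMSO held 7 and 28 reads.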
